A study of Arabidopsis thaliana with 28 samples.

Results

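Plant cells divide when cyclins bind cyclin-dependent kinases (CDKs), and CDK inhibitors hold those complexes back. The genes described here are 37 of the 33557 genes in the deposited expression table, taken by locus identifier: 7 A-type, 9 B-type and 9 D-type cyclins, 4 B-type CDKs, 4 genes of mitosis and cytokinesis (KNOLLE, CDC20.1, AUR1 and AUR2), and 4 CDK inhibitors (KRP1, KRP2, SIM and SMR1). They were followed in Arabidopsis thaliana seedlings of the reference accession Col-0, grown for 3 d in darkness and then moved to simulated white light at 100 µmol m−2 s−1. One tissue was the cotyledons with the shoot apical meristem (called cotyledons below) and the other was the hypocotyl, the embryonic stem. Each was taken in darkness and after 15 min, 30 min, 1 h, 3 h, 6 h and 12 h of light, with 2 biological replicates (A and B) per tissue and time, which gave 14 groups and 28 libraries of poly(A) RNA. All seedlings shared the dark growth and had their roots cut off, and no group carried a mutation or a transgene. The dark seedlings were collected under a green safe light, and the tissues were separated under a stereomicroscope after collection in cold acetone.

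D-type cyclins link hormones, sugar and other growth signals to entry into the cycle. A-type cyclins act mainly from DNA replication to the onset of mitosis, and B-type cyclins together with B-type CDKs drive the passage from G2 into mitosis. KRP proteins and the SIM and SMR proteins are inhibitors of plant CDKs, and SIM and SMR1 promote endoreduplication, in which DNA is copied without division. Growth of a dark-grown hypocotyl is mainly by cell elongation, while light starts growth of the shoot apex and its leaf primordia, along with divisions in the stomatal lineage of the epidermis.

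Expression is given in FPKM, fragments counted per gene and scaled to transcript length and to the number of mapped fragments. Of the 37 genes, 34 averaged 1 FPKM or more across the 28 libraries and entered the test, among 18678 genes in all. Changes are differences of log2(FPKM + 1), which understate the change of low genes, with the standard error (SE) from limma. A gene is called here when its adjusted p is under 0.05 and the difference is at least 1. Read counts were not among the values used, but steps between low FPKM values gave relative depths of 0.614 to 1.72 across the libraries. Each of the 28 libraries was closest to its own replicate (r of 0.965 to 0.985 across genes). All light times were compared with the same 2 dark libraries of their tissue. No dark library was matched in age to a light time, so light, seedling age and time of day cannot be told apart. In these bulk tissues a smaller share of dividing cells and less RNA per dividing cell cannot be told apart.

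The 3 genes below 1 FPKM on average were CYCA2;1 (AT5G25380), CYCB2;1 (AT2G17620) and CYCD7;1. CYCD7;1 (AT5G02110), a cyclin of the last division of the stomatal lineage, had a mean of 0.292 FPKM, was at 0 in 11 libraries and was highest in cotyledons at 15 min, replicate B, with 0.903 FPKM. Its hypocotyl libraries did not exceed 0.0956 FPKM. CYCA2;1, expressed mainly in vascular tissue and guard cells, had a mean of 0.546 FPKM and its highest value, 1.36 FPKM, in hypocotyls at 12 h, replicate A. CYCB2;1 had a mean of 0.922 FPKM and did rise above the limit in cotyledons late in the series, from 0.794 and 0.834 FPKM in darkness to 1.86 and 1.38 FPKM at 6 h and 4.15 and 2.58 FPKM at 12 h. All 3 were left untested.

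In cotyledons no member was called at 15 min, 30 min or 1 h of light, against 0.846%, 3.37% and 11.3% of all tested genes. At an unadjusted p under 0.05, 8, 9 and 11 of the 34 tested members differed at those times. At 3 h 3 members were higher and none lower (13.1% of all genes were higher and 10.9% lower). At 6 h 12 were higher and 2 lower (16.9% and 11% of all genes), and at 12 h 15 were higher and 2 lower (15.1% and 8.25%). The median change of the members was 0.20, 0.72 and 0.90 on the log2 scale at 3, 6 and 12 h, while the median of all genes was 0.03, 0.03 and 0.04. The cotyledon counts at 6 and 12 h thus lie above the share of all genes called higher, and that at 3 h lies below it. The count of called members was 5 at 3 h without cotyledon 3 h replicate B and 9 at 6 h without cotyledon dark replicate B. It was 1 at 30 min without cotyledon dark replicate B or cotyledon 30 min replicate B, and 1 at 1 h without cotyledon dark replicate A.

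In hypocotyls no member was called at 15 min, when 0.996% of all genes were, and 3 differed at an unadjusted p under 0.05. SMR1 was the single member called at 30 min, lower (1.84% of all genes were lower), and CYCD3;2 the single one at 1 h, higher (4.89% were higher). At 3 h 3 members were higher and 1 lower (12.4% and 8.82% of all genes), and at 6 h 2 were higher and 1 lower (14.2% and 11.9%), which is no more than the shares of all genes. At 12 h 16 members were higher and 1 lower (16.6% and 14.2% of all genes). The members' median change was 0.20 at 3 h, 0.15 at 6 h and 0.99 at 12 h, against 0.04, 0.01 and 0.02 for all genes. Between 6 and 12 h alone 8 members rose in hypocotyls and none fell, where 1.75% of all genes rose. In cotyledons CDC20.1 was the one member that rose over the same interval, where 2.32% of all genes rose. Between 1 and 6 h, 8 members rose and 1 fell in cotyledons (11.1% and 6.74% of all genes), and CYCD3;3 alone rose in hypocotyls (10.5%). Without hypocotyl dark replicate A 2 members were called at 3 h, and without hypocotyl 6 h replicate A none was called between 1 and 6 h. In cotyledons 2 were called between 6 and 12 h without 12 h replicate A and 3 without 12 h replicate B.

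**Figure D1:**
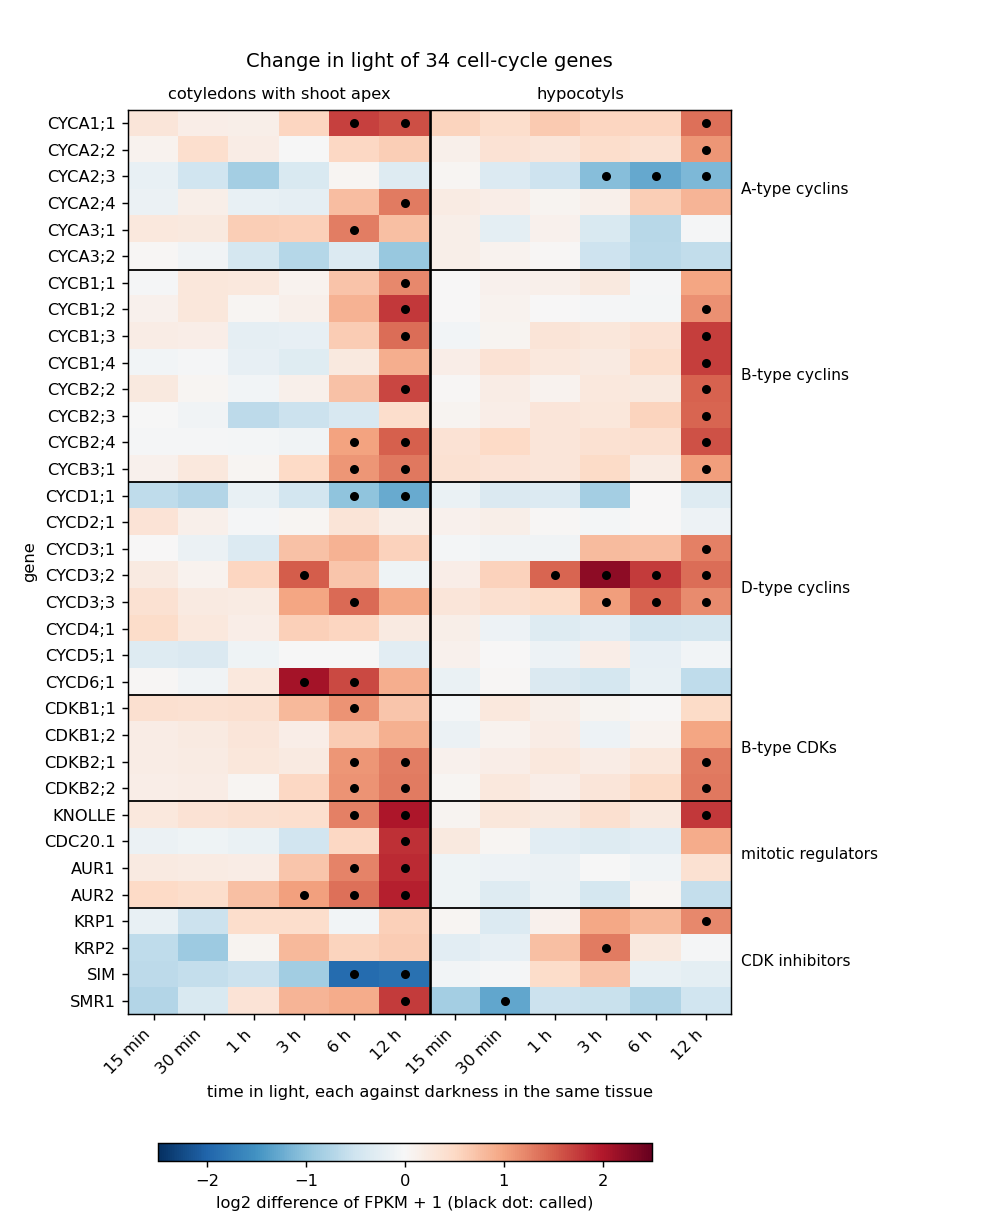
Change of each tested member from darkness, as the difference of log2(FPKM + 1) between the mean of 2 libraries at each light time and the mean of the 2 dark libraries, for cotyledons and hypocotyls. In cotyledons most rises appear by 6 h, and in hypocotyls at 12 h, while CYCD3;2 is already raised at 1 and 3 h and SIM falls in cotyledons.

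The change from darkness differed between the tissues, in a test of the difference itself, for no member at 15 min, 30 min or 1 h (0.503%, 2.41% and 9.9% of all genes), with 2, 5 and 9 members at an unadjusted p under 0.05. At 3 h the hypocotyl change was the higher for 1 member and the lower for 3 (15.5% and 13.5% of all genes). At 6 h it was the higher for 3 and the lower for 9 (17.8% and 19.1%), and at 12 h the higher for 3 and the lower for 4 (16.5% and 17.3%). The members' median difference was −0.58 at 6 h, where that of all genes was 0.00, and −0.21 at 12 h, where that of all genes was −0.04. At 1 h 1 or 2 members were called when one of cotyledon dark A, cotyledon dark B, cotyledon 1 h A, cotyledon 1 h B, hypocotyl dark A or hypocotyl 1 h B was left out, and 1 at 30 min without cotyledon dark A.

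CYCD3;2 (AT5G67260), which with CYCD3;1 (AT4G34160) and CYCD3;3 (AT3G50070) keeps leaf cells dividing and delays endoreduplication, was the first member called higher in hypocotyls, at 1 h, and one of the 3 called higher in cotyledons at 3 h, with CYCD6;1 and AUR2. In cotyledons its 2 libraries (A, then B) held 81.2 and 80.8 FPKM in darkness, 114 and 123 FPKM at 1 h, 230 and 234 FPKM at 3 h, 129 and 133 FPKM at 6 h, and 68.7 and 83.2 FPKM at 12 h. The 3 h libraries stand above all other cotyledon libraries, and the 12 h libraries overlap with the dark ones. In hypocotyls the values were 6.31 and 7.13 FPKM in darkness, 10.1 and 10.8 FPKM at 30 min, 20.17 and 19.9 FPKM at 1 h, 33.9 and 36.4 FPKM at 3 h, 23.5 and 26.5 FPKM at 6 h, and 20.6 and 18.1 FPKM at 12 h. Every hypocotyl library from 30 min on lies above both dark ones, and at 12 h they had not returned to the dark level. The log2 change at 3 h was 1.51 (SE 0.11, adjusted p = 3.45e-10) in cotyledons and 2.23 (SE 0.11, adjusted p = 6.26e-13) in hypocotyls. The hypocotyl change exceeded the cotyledon change by 1.07 at 6 h and by 1.49 at 12 h. The 6 h difference was 0.99 without hypocotyl dark replicate A and 0.98 without hypocotyl 6 h replicate B, just under the limit of 1.

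CYCD3;3 was called in hypocotyls at 3 h (1.04, and 0.90 without hypocotyl dark replicate A) and in both tissues at 6 h. It went from 10.6 ± 0.016 (SD, n = 2) to 30.1 ± 1.4 FPKM at 6 h in cotyledons and from 4.19 ± 0.70 to 13.4 ± 0.36 FPKM in hypocotyls, log2 changes of 1.42 and 1.48 that were both called. CYCD3;1 went from 21.3 ± 1.5 to 39.8 ± 1.4 FPKM at 6 h in cotyledons, which did not reach the fold limit, and from 1.30 ± 0.0037 to 4.53 ± 0.88 FPKM at 12 h in hypocotyls, which was called at 1.26. All CYCD3 genes were lower in dark hypocotyls than in dark cotyledons.

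CYCD6;1 (AT4G03270), known in the root for the formative division of the ground tissue, had the greatest rise of any D-type cyclin in cotyledons and was called at no time in hypocotyls. Its cotyledon libraries held 1.59 and 0.971 FPKM in darkness, 1.52 and 1.93 FPKM at 1 h, 11.7 and 6.23 FPKM at 3 h, 5.56 and 6.64 FPKM at 6 h, and 2.97 and 3.50 FPKM at 12 h. Its hypocotyl libraries held 2.24 and 1.96 FPKM in darkness, 1.42 and 1.18 FPKM at 3 h, 2.30 and 1.23 FPKM at 6 h, and 1.21 and 0.814 FPKM at 12 h. The cotyledon libraries from 3 h on lie above the dark ones, with replicate A far above B at 3 h. The cotyledon change at 3 h was 2.08 (SE 0.26, adjusted p = 5.73e-07), and the hypocotyl change differed from it by −2.51 (SE 0.36, adjusted p = 6.55e-06). The gene overlaps AT4G03260 on the opposite strand over 23.0% of its 50-base stretches. The sample titles call the libraries stranded, but whether reads were counted by strand is not stated, so reads of one gene may have been counted for the other. The partner went from 35.8 to 84.8 FPKM by 3 h in cotyledons and from 32.9 to 82.7 FPKM in hypocotyls, and its part in the CYCD6;1 values was not tested.

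The other D-type cyclins moved little or fell. CYCD1;1 (AT1G70210), active during germination, fell in cotyledons from 32.3 ± 6.4 to 15.4 ± 0.94 FPKM at 6 h and 12.8 ± 1.7 FPKM at 12 h (log2 changes of −1.0 and −1.26). The cotyledon change at 6 h was −0.81 without cotyledon dark replicate A and −0.95 without cotyledon 6 h replicate A. In hypocotyls it stood at 45.5 ± 6.6 FPKM in darkness and 45.5 ± 0.59 FPKM at 6 h. Its hypocotyl libraries at 3 h were lower, at 22.7 and 27.3 FPKM, which was not called. The authors' deposited table gives −0.89 for that change, with a q of 0.000191. CYCD2;1 (AT2G22490), CYCD4;1 (AT5G65420) and CYCD5;1 (AT4G37630) were called in no comparison: their group means lay between 8.09 and 11.8 FPKM, between 1.77 and 3.88 FPKM, and between 2.78 and 5.81 FPKM.

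**Figure D2:**
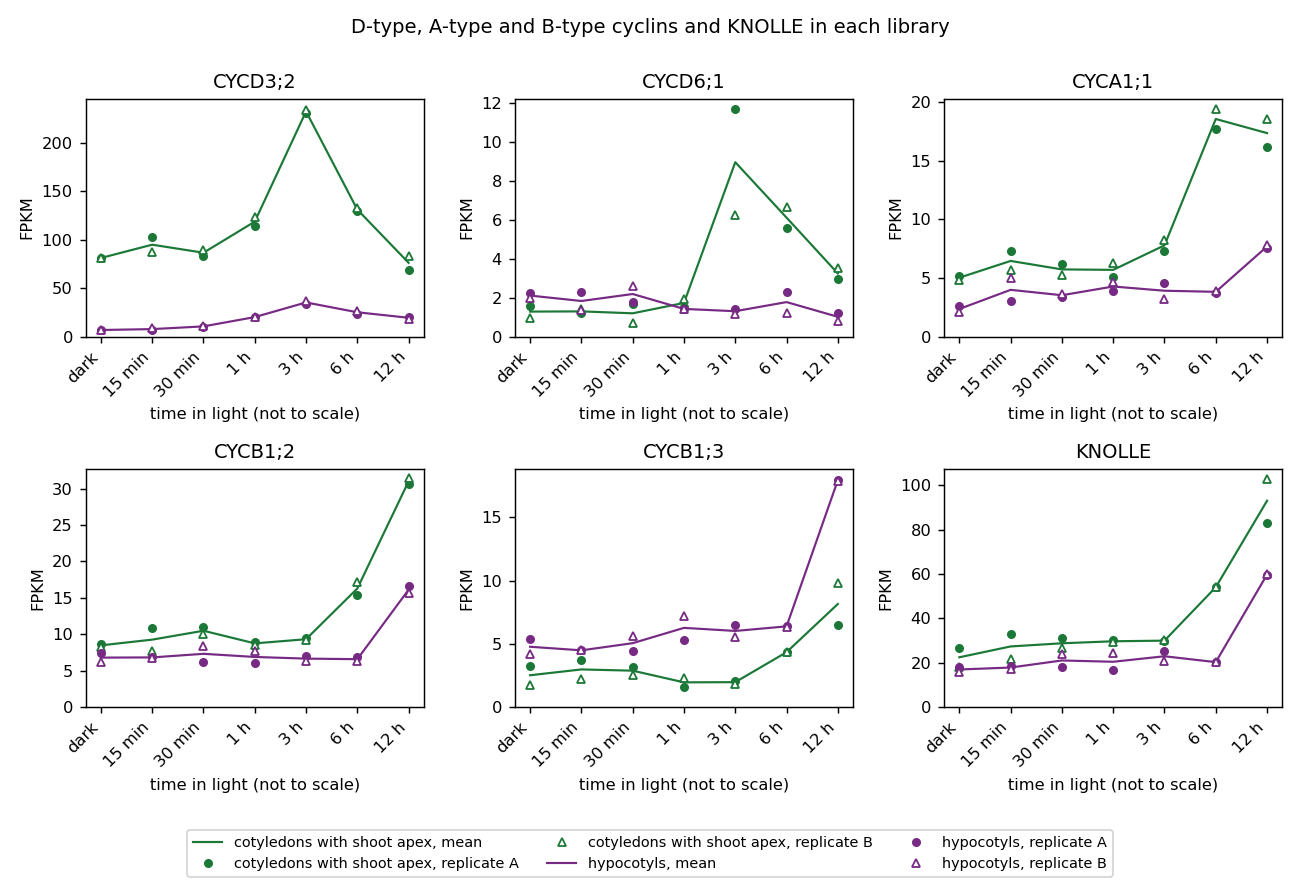
FPKM of single members in each of the 28 libraries against time in light (categories, not to scale), with replicate A as filled circles, replicate B as open triangles and lines through the means. CYCD3;2 is highest at 3 h in both tissues, while the mitotic genes shown are highest at 12 h in hypocotyls.

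CYCA1;1 (AT1G44110) was the leading A-type cyclin in both tissues. Its cotyledon libraries held 5.20 and 4.84 FPKM in darkness, 7.30 and 8.26 FPKM at 3 h, 17.7 and 19.4 FPKM at 6 h, and 16.2 and 18.6 FPKM at 12 h. Its hypocotyl libraries held 2.57 and 2.13 FPKM in darkness, 3.73 and 3.91 FPKM at 6 h, and 7.6 and 7.77 FPKM at 12 h. No light library at 6 or 12 h overlaps the dark ones of its tissue. The cotyledon change at 6 h was 1.70 (SE 0.17, adjusted p = 2.88e-08), the hypocotyl change at 12 h was 1.38 (SE 0.17, adjusted p = 4.84e-07), and at 6 h the hypocotyl change differed from the cotyledon change by −1.17 (SE 0.24, adjusted p = 0.000276).

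CYCA3;1 (AT5G43080), a cyclin of the S phase, had the largest difference between tissues in its class. It stood at 3.15 and 3.17 FPKM in dark cotyledons and 8.32 and 9.75 FPKM at 6 h, and at 2.81 and 2.17 FPKM in dark hypocotyls and 1.27 and 1.00 FPKM at 6 h. The cotyledon libraries are higher at 6 h and the hypocotyl ones lower, with no overlap in either tissue. The cotyledon change was 1.27, and the hypocotyl change differed from it by −1.97 (SE 0.26, adjusted p = 1.90e-06).

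CYCA2;3 (AT1G15570), which restrains endoreduplication, was the one member called lower in hypocotyls at 3, 6 and 12 h (−1.06, −1.28 and −1.13). It went from 4.42 ± 0.37 FPKM in darkness to 1.23 ± 0.039 FPKM at 6 h. In cotyledons it stood at 13.7 ± 1.2 FPKM in darkness and 14.1 ± 0.11 FPKM at 6 h. Its 3 h call was lost at −0.99 without hypocotyl dark replicate A or hypocotyl 3 h replicate B. An opposite-strand gene that overlaps it, AT1G15580, went from 9.94 FPKM in dark hypocotyls to 0.834 FPKM at 6 h, and its part in the CYCA2;3 values was not tested. CYCA2;4 (AT1G80370) rose in cotyledons at 12 h (2.34 ± 0.21 to 7.22 ± 0.94 FPKM). CYCA2;2 (AT5G11300) rose in hypocotyls at 12 h, from 3.43 ± 0.0072 to 8.53 ± 0.59 FPKM (1.10, and 0.94, no longer called, after quantile normalization). CYCA3;2 (AT1G47210) was called in no comparison, with group means from 8.65 to 18.1 FPKM.

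The B-type cyclins moved as a block late in the light. All 8 tested ones had their highest group mean at 12 h in both tissues. In cotyledons 2 of the 8 were called higher at 6 h (median change 0.72) and 6 at 12 h (median 1.35). Of all genes 16.9% and 15.1% were higher there, so the 6 h count is near the share of all genes. In hypocotyls none was called at 6 h (median 0.30) and 7 were at 12 h (median 1.46), where 14.2% and 16.6% of all genes were higher. In hypocotyls 6 of the 8 rose between 6 and 12 h, with a median of 1.18 (1.75% of all genes rose). In cotyledons none was called over that interval, where the median was 0.71 and 2.32% of all genes rose.

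CYCB1;2 (AT5G06150) had the greatest rise of the tested genes of its class in cotyledons on the log2(FPKM + 1) scale. By the plain ratio of mean FPKM at 12 h to darkness it stood at 3.66, below CYCB3;1 (AT1G16330) at 3.96 and CYCB2;2 (AT4G35620) at 3.87. Its libraries there held 8.66 and 8.28 FPKM in darkness, 15.4 and 17.2 FPKM at 6 h, and 30.6 and 31.4 FPKM at 12 h. In hypocotyls they held 7.40 and 6.18 FPKM in darkness, 6.87 and 6.28 FPKM at 6 h, and 16.6 and 15.7 FPKM at 12 h. The 6 h libraries are above the dark ones in cotyledons and within their range in hypocotyls. The log2 change at 12 h was 1.76 (SE 0.14, adjusted p = 1.29e-09) in cotyledons and 1.14 in hypocotyls, both called.

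CYCB1;3 (AT3G11520) had the greatest rise in hypocotyls, with 5.35 and 4.18 FPKM in darkness, 6.42 and 6.33 FPKM at 6 h, and 18.0 and 17.9 FPKM at 12 h. In cotyledons it held 3.25 and 1.77 FPKM in darkness and 6.45 and 9.84 FPKM at 12 h, so the cotyledon replicates lie further apart. The 12 h change was 1.72 (SE 0.21, adjusted p = 5.23e-07) in hypocotyls and 1.39 in cotyledons. CYCB1;4 (AT2G26760) rose by nearly the same amount in hypocotyls, from 11.3 and 9.39 FPKM in darkness and 14.2 and 14.4 FPKM at 6 h to 36.2 and 36.2 FPKM at 12 h (1.72, SE 0.11, adjusted p = 2.39e-11). CYCB1;4 was the one tested B-type cyclin besides CYCB2;3 (AT1G20610) that was not called in cotyledons at 12 h (7.80 ± 0.48 to 15.5 ± 1.1 FPKM).

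CYCB2;3 was the one B-type cyclin whose change differed between the tissues. It held 4.61 and 4.86 FPKM in dark cotyledons and 5.95 and 7.61 FPKM at 12 h, and 4.43 and 3.25 FPKM in dark hypocotyls and 12.3 and 12.1 FPKM at 12 h. The difference at 12 h was 1.03 (SE 0.21, adjusted p = 0.000263), close to the limit. It was 1.00, just below the limit, without cotyledon dark replicate B, 0.87 without cotyledon 12 h replicate A, 0.85 without hypocotyl dark replicate B and 0.96 after quantile normalization. CYCB2;2 rose in both tissues, from 3.29 ± 0.080 to 12.7 ± 1.5 FPKM in cotyledons and from 4.67 ± 0.95 to 14.6 ± 0.99 FPKM in hypocotyls at 12 h. CYCB1;1 (AT4G37490), widely used as a marker of G2 and mitosis, went from 2.23 ± 0.096 to 6.51 ± 1.6 FPKM in cotyledons at 12 h (1.2, and 0.97 without cotyledon 12 h replicate B) and from 1.18 ± 0.11 to 3.34 ± 0.67 FPKM in hypocotyls, which was not called against darkness. CYCB2;4 (AT1G76310) went from 5.75 ± 1.8 to 17.9 ± 2.4 FPKM in cotyledons and from 3.60 ± 0.46 to 12.8 ± 0.56 FPKM in hypocotyls at 12 h, and CYCB3;1 from 0.989 ± 0.29 to 3.92 ± 0.52 FPKM and from 1.10 ± 0.50 to 3.26 ± 0.20 FPKM, all of them called. The 12 h call of CYCB3;1 in hypocotyls was lost without dark replicate B (0.79) or 12 h replicate B (0.99). At 6 h these were the B-type cyclins called in cotyledons, and both calls were lost without cotyledon dark replicate B (0.73 and 0.96) or cotyledon 6 h replicate B (0.93 and 0.95).

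The stretches upstream of the start sites of these late-rising cyclins are shown because many G2 and mitosis genes of plants carry the mitosis-specific activator element, whose core is AACGG, the letters read by MYB3R factors. The core was searched on both strands in the 300 bases from 250 before to 50 after each annotated start. It occurred in 8 of the 9 B-type cyclins (88.9%), 3 of 4 genes of mitosis and cytokinesis, 3 of 7 A-type cyclins, 1 of 9 D-type cyclins, 1 of 4 B-type CDKs and 2 of 4 inhibitors. Among all 27443 promoters 24.7% held it. In the 250 bases before the start alone, 6 of the 9 B-type cyclins held it (66.7%), against 20.6% of all promoters. KRP1 (AT2G23430), an inhibitor, held 6 copies before the start. A match of letters is a description and does not show that a factor binds there. Below are the 250 bases before the start of CYCA1;1 (chr1:16777353-16777602, minus strand), CYCB1;2 (chr5:1861704-1861953, minus strand), CYCB1;3 (chr3:3627274-3627523, minus strand) and CYCB2;2 (chr4:16901346-16901595, plus strand), read 5′ to 3′ from the RefSeq sequence of build TAIR10.1, with AACGG and its reverse complement CCGTT in capitals.
CYCA1;1: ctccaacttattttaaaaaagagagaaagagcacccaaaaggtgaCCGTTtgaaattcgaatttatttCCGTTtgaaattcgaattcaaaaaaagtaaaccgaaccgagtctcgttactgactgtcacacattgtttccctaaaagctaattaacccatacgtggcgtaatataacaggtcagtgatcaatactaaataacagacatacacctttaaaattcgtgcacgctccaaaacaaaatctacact
CYCB1;2: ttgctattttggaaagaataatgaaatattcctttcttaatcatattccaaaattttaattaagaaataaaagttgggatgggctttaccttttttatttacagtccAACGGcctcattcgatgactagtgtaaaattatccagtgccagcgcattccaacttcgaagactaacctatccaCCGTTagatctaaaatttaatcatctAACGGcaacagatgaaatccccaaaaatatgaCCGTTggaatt
CYCB1;3: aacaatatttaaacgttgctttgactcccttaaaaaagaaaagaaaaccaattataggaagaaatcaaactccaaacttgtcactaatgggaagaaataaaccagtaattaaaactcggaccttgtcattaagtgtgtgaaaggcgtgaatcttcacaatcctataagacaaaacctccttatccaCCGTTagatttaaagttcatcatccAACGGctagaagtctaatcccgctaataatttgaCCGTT
CYCB2;2: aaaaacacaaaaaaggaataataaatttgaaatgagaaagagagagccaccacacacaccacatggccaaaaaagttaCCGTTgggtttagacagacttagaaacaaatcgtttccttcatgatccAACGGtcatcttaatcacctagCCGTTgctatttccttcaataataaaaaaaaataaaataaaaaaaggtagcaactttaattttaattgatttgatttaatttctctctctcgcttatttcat
CYCB1;2 holds 4 copies, CYCB1;3 and CYCB2;2 hold 3 each, and CYCA1;1 holds 2, both on the reverse strand. The longest stretch shared by the CYCB1;2 and CYCB1;3 sequences is 15 bases, and that shared by CYCB1;2 and CYCB2;2 is 10 bases.

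The genes shown above were chosen among those that hold the core. Other members that rose by 12 h hold none before the start, among them CYCB1;4, CYCB2;4, CYCB3;1, CYCA2;2, CYCA2;4, CDKB2;1 and CDC20.1, while the D-type cyclin CYCD3;1 holds 1. The same window of CYCD3;2 (chr5:26835889-26836138, plus strand), shown as an example of a member without the core, holds none.
CYCD3;2: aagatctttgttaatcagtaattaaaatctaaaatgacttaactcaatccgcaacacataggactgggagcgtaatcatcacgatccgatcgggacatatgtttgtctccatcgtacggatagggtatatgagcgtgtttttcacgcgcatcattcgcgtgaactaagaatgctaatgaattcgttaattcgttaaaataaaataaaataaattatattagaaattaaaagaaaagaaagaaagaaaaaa

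B-type CDKs are plant kinases that pair with mitotic cyclins, and all 4 were highest at 6 or 12 h in cotyledons and at 12 h in hypocotyls. CDKB2;2 (AT1G20930) held 6.8 and 6.39 FPKM in dark cotyledons and 16.4 and 19.0 FPKM at 12 h, and 6.01 and 6.53 FPKM in dark hypocotyls and 17.7 and 16.6 FPKM at 12 h. The 12 h libraries of both tissues lie far above the dark ones, and the 2 tissues overlap at each of these times. The log2 change was 1.30 (SE 0.13, adjusted p = 2.46e-08) in cotyledons and 1.32 (SE 0.13, adjusted p = 1.18e-08) in hypocotyls. CDKB2;1 (AT1G76540) had the highest level of the class, 55.9 ± 2.5 FPKM in hypocotyls at 12 h, with changes of 1.28 and 1.29.

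CDKB1;1 (AT3G54180), which acts with CYCA2 cyclins in the stomatal lineage and in limiting endoreduplication, differed between the tissues at 6 h. It held 6.47 and 5.09 FPKM in dark cotyledons and 13.5 and 13.8 FPKM at 6 h, and 7.83 and 6.51 FPKM in dark hypocotyls and 7.02 and 7.58 FPKM at 6 h. The cotyledon libraries rose clear of the dark ones, and the hypocotyl libraries overlap with them. The difference was −1.09 (SE 0.23, adjusted p = 0.000341), and it was −0.94 without cotyledon dark replicate B, −0.98 without hypocotyl dark replicate A and −0.99 under upper-quartile scaling. Without cotyledon dark replicate B the cotyledon change itself was 0.97, in place of 1.12. CDKB1;2 (AT2G38620) was called in no comparison, though it went from 5.28 ± 0.068 to 11.5 ± 0.66 FPKM in hypocotyls at 12 h, a change of 0.99 (SE 0.20, adjusted p = 0.000191) just under the limit. The authors' deposited table gives 1.11 for it, with a q of 0.00189.

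KNOLLE (AT1G08560), the syntaxin that fuses vesicles into the cell plate at cytokinesis, had the greatest rise of the tested members at 12 h in both tissues on the log2(FPKM + 1) scale. By the plain ratio of mean FPKM at 12 h to darkness, AUR2 stood above it in cotyledons (4.25 against 4.15) and CYCB1;3 in hypocotyls (3.76 against 3.53). Its cotyledon libraries held 26.6 and 18.2 FPKM in darkness, 54.1 and 54.0 FPKM at 6 h, and 83.2 and 103 FPKM at 12 h. Its hypocotyl libraries held 18.2 and 15.7 FPKM in darkness, 20.4 and 20.14 FPKM at 6 h, and 59.4 and 60.05 FPKM at 12 h. The hypocotyl libraries at 6 h lie just above the dark ones and those at 12 h far above. The 12 h change was 2.02 (SE 0.19, adjusted p = 2.62e-08) in cotyledons and 1.76 (SE 0.19, adjusted p = 1.17e-07) in hypocotyls, of which 1.51 fell between 6 and 12 h. The difference between the tissues at 6 h was −1.01, and it was −0.74 without cotyledon dark replicate B, −0.90 without hypocotyl dark replicate A and −1.0, short of the limit, without hypocotyl 6 h replicate B. It was also short of the limit after quantile normalization (−0.92) and under upper-quartile scaling (−0.90). KNOLLE shares 32.2% of its 50-base stretches with the opposite-strand gene AT1G08550, which went from 48.8 to 116 FPKM in cotyledons and from 2.75 to 36.1 FPKM in hypocotyls by 12 h. At 6 h that partner stood at 80.3 FPKM in cotyledons and 27.0 FPKM in hypocotyls. The partner's part in the KNOLLE values was not tested.

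CDC20.1 (AT4G33270), which activates the anaphase-promoting complex, stood at 13.8 and 14.4 FPKM in dark cotyledons, 19.5 and 21.9 FPKM at 6 h, and 60.4 and 45.8 FPKM at 12 h. It stood at 6.71 and 7.13 FPKM in dark hypocotyls, 5.72 and 5.40 FPKM at 6 h, and 13.8 and 14.2 FPKM at 12 h. In both tissues the step lies between 6 and 12 h, at 1.31 in cotyledons and 1.2 in hypocotyls, and the hypocotyl change from darkness, 0.93, was not called. CDC20.1 shares 33.2% of its 50-base stretches with CDC20.2 (AT4G33260), which went from 5.71 to 25.7 FPKM in cotyledons and from 5.42 to 13.6 FPKM in hypocotyls, so the split of reads between the copies is uncertain.

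The Aurora kinases AUR1 (AT4G32830) and AUR2 (AT2G25880), which act at the spindle and cell plate, rose in cotyledons and were called at no time in hypocotyls. AUR2 held 6.87 and 3.92 FPKM in dark cotyledons and 20.6 and 25.3 FPKM at 12 h, and 21.1 and 30.1 FPKM in dark hypocotyls and 15.9 and 16.8 FPKM at 12 h. The tissues thus changed order: in darkness both hypocotyl libraries are above both cotyledon ones, and at 12 h both are below. The cotyledon change was 1.94 and the hypocotyl change differed from it by −2.54 (SE 0.33, adjusted p = 2.24e-06). AUR1 went from 7.55 ± 1.9 to 29.9 ± 0.15 FPKM in cotyledons (1.87) and stood at 14.8 ± 1.0 and 19.8 ± 1.4 FPKM in hypocotyls, a difference of −1.48. AUR1 shares 22.5% of its 50-base stretches with the opposite-strand gene AT4G32840. The group means of that partner lay between 5.53 and 9.42 FPKM in cotyledons and between 2.97 and 4.43 FPKM in hypocotyls. AUR2 shares 43.8% of its 50-base stretches with the opposite-strand gene AT2G25890, whose group means were at or below 0.164 FPKM in cotyledons and went from 11.2 to 3.15 FPKM in hypocotyls. The part of either partner in the AUR1 and AUR2 values was not tested.

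**Figure D3:**
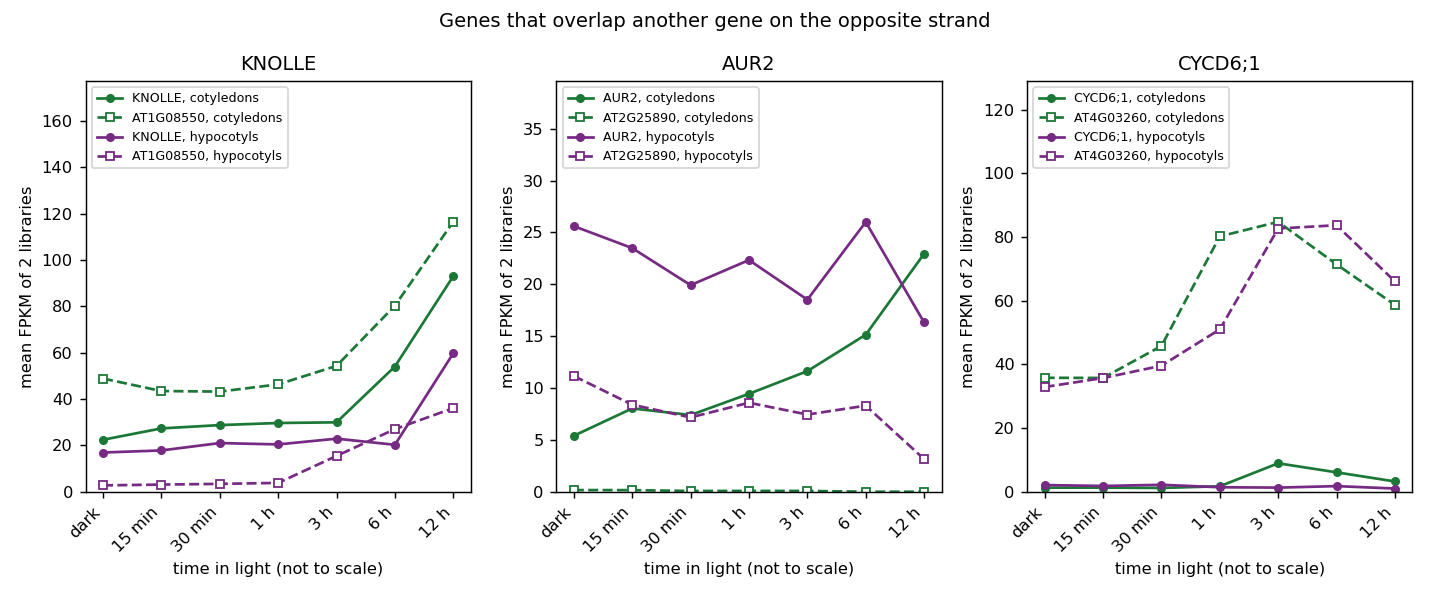
Mean FPKM of 2 libraries for KNOLLE, AUR2 and CYCD6;1 (filled circles, solid lines) and for the gene that overlaps each on the opposite strand (open squares, dashed lines), against time in light (categories, not to scale). The partner of AUR2 is near 0 in cotyledons, and that of KNOLLE is highest at 12 h in both tissues.

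All 4 inhibitors were called between the tissues in darkness already, where 23.4% of all genes were higher in hypocotyls and 21.2% lower. SIM, KRP2 and SMR1 were higher in dark hypocotyls and KRP1 was lower. SIM (AT5G04470), known for stopping division in developing trichomes, was the most abundant member in hypocotyls and the one inhibitor called lower in cotyledons. Its cotyledon libraries held 42.0 and 30.9 FPKM in darkness, 15.1 and 25.0 FPKM at 3 h, 8.89 and 8.64 FPKM at 6 h, and 10.2 and 8.28 FPKM at 12 h. Its hypocotyl libraries held 201 and 200 FPKM in darkness, 286 and 262 FPKM at 1 h, 315 and 345 FPKM at 3 h, 168 and 186 FPKM at 6 h, and 158 and 181 FPKM at 12 h. Hypocotyl libraries at 1 and 3 h lie above the dark ones and those at 6 and 12 h below, and neither passed the fold limit. The cotyledon change at 6 h was −1.92 (SE 0.19, adjusted p = 3.88e-08), and the hypocotyl change exceeded it by 1.75.

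KRP2 (AT3G50630), which restrains the divisions that found lateral roots, peaked at 3 h in hypocotyls. It held 74.7 and 88.9 FPKM in dark hypocotyls, 144 and 134 FPKM at 1 h, 213 and 192 FPKM at 3 h, 96.0 and 98.5 FPKM at 6 h, and 76.9 and 82.9 FPKM at 12 h. In cotyledons it held 16.7 and 13.9 FPKM in darkness, 7.0 and 8.37 FPKM at 30 min, and 24.8 and 30.3 FPKM at 3 h. Its cotyledon change at 30 min was −0.91 (adjusted p = 5.44e-05), short of the limit. The hypocotyl libraries at 12 h overlap with the dark ones. The hypocotyl change at 3 h was 1.30 (SE 0.13, adjusted p = 5.35e-08).

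SMR1 (AT3G10525), which promotes endoreduplication in the giant cells of the sepal, was low after 15 and 30 min of light and by 12 h rose in cotyledons. It held 27.6 and 20.5 FPKM in dark cotyledons, 11.8 and 16.1 FPKM at 15 min, and 94.2 and 71.6 FPKM at 12 h. In hypocotyls it held 61.7 and 64.9 FPKM in darkness, 32.3 and 37.2 FPKM at 15 min, 26.2 and 24.4 FPKM at 30 min, and 39.5 and 50.8 FPKM at 12 h. Both tissues are below darkness at 15 min, and at 12 h the cotyledon libraries are above it and the hypocotyl ones below. The hypocotyl change at 30 min was −1.29, the cotyledon change at 12 h was 1.75, and the difference between the tissues at 12 h was −2.23 (SE 0.23, adjusted p = 7.42e-08). SIM and SMR1 each overlap another annotated gene, over 25.4% and 32.7% of their 50-base stretches. The deposited expression values hold no entry for either of these genes, and their part in the SIM and SMR1 values was not tested. KRP1 rose in hypocotyls, from 3.42 and 5.57 FPKM in darkness to 10.1 and 12.8 FPKM at 12 h (1.2, and 0.91 without hypocotyl dark replicate A), and stood at 17.5 ± 3.7 and 26.7 ± 2.2 FPKM in cotyledons, which was not called.

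**Figure D4:**
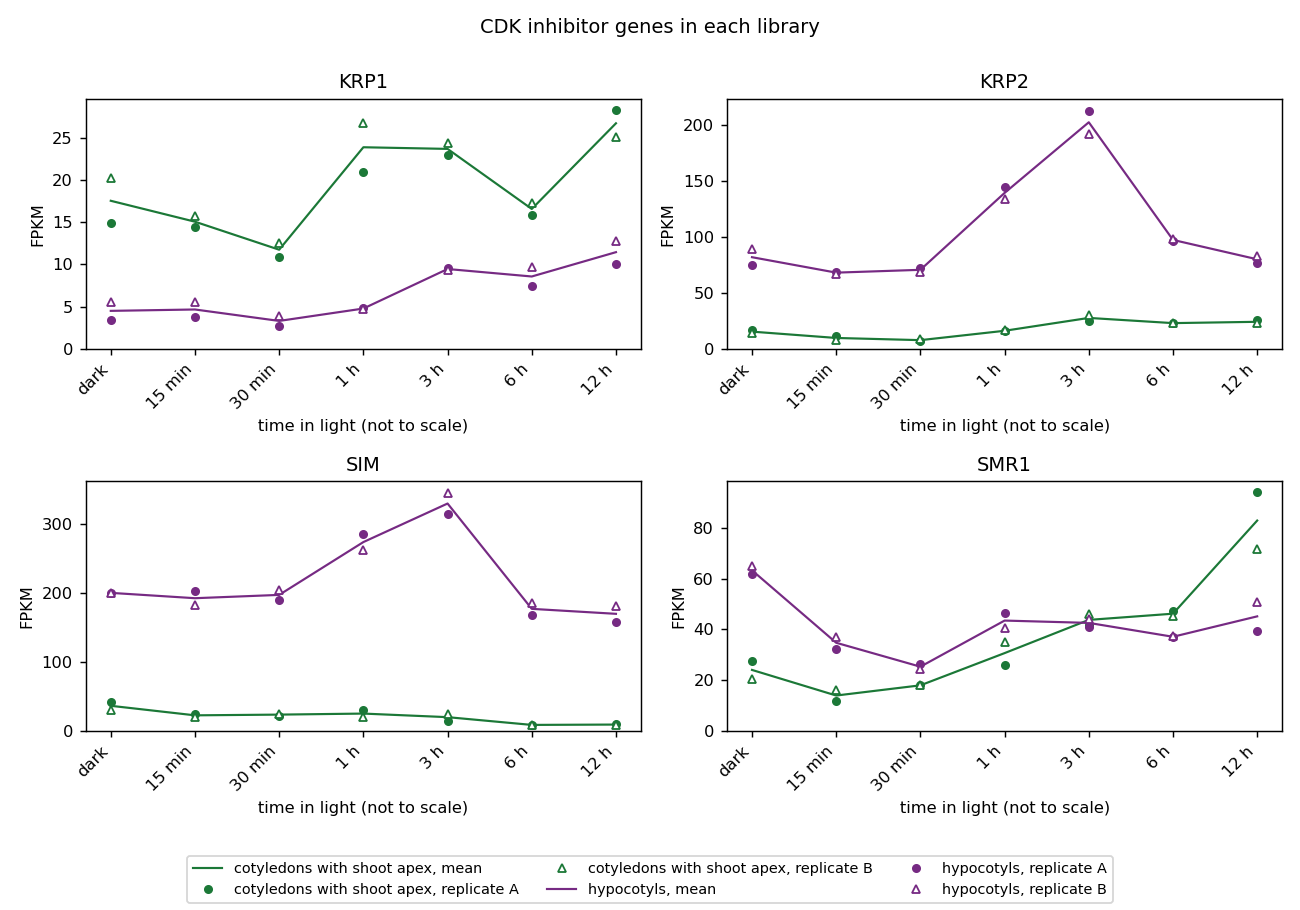
FPKM of the 4 CDK inhibitor genes in each library against time in light (categories, not to scale), with replicate A as filled circles, replicate B as open triangles and lines through the means of 2 libraries. KRP2 and SIM peak at 3 h in hypocotyls, SIM falls in cotyledons, and SMR1 is above its dark level in cotyledons and below it in hypocotyls at 12 h.

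In darkness 9 of the 34 tested members differed between the tissues, 4 higher and 5 lower in hypocotyls, against 23.4% and 21.2% of all genes. The higher ones were SIM (2.44), KRP2 (2.35), AUR2 (2.07) and SMR1 (1.37). The lower ones were CYCD3;2 (−3.41, adjusted p = 2.34e-16), CYCD3;1 (−3.27), KRP1 (−1.77), CYCA2;3 (−1.44) and CYCD3;3 (−1.17). Dark cotyledons thus held 16.4 times the CYCD3;1 level and 12.1 times the CYCD3;2 level of dark hypocotyls, and dark hypocotyls 5.49 times the SIM level and 5.35 times the KRP2 level of dark cotyledons. No B-type cyclin and no B-type CDK was called between the dark tissues.

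Other cell-cycle genes were counted from lists of known function. Of 19 tested genes of DNA replication, 11 rose in cotyledons at 3 h, 16 at 6 h and 2 at 12 h, with medians of 1.06, 1.22 and 0.30. Of all genes 13.1%, 16.9% and 15.1% were higher at those times, so the share at 12 h is no higher than that of all genes. In hypocotyls 1 rose at 6 h and 2 at 12 h, with medians of −0.62 and −0.43, where 14.2% and 16.6% of all genes were higher. Their summed level was 147 to 150 FPKM in dark cotyledons, 457 to 476 FPKM at 6 h and 216 to 270 FPKM at 12 h, and in hypocotyls 120 to 138, 87.6 to 96.7 and 118 to 127 FPKM. Replication genes in cotyledons were thus high at 6 h and lower again at 12 h, while B-type cyclins were highest at 12 h. The named examples at 6 h in cotyledons were RNR2A, a subunit of the enzyme that makes deoxyribonucleotides (2.69, from 4.53 to 34.6 FPKM), PCNA1, the replication clamp (1.89), and RNR1 (1.84). RNR2A was also called in hypocotyls at 6 h (1.59). All 19 had a hypocotyl change at 6 h called lower than the cotyledon change, as did 19.1% of all genes, with a median difference of −1.76.

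Of 19 genes of mitosis and cytokinesis outside the 37, 12 rose in cotyledons at 6 h and 12 at 12 h (medians 1.07 and 1.51, against 16.9% and 15.1% of all genes higher). In hypocotyls none was called at 6 h by limma (6 at an unadjusted p under 0.05, median 0.16) and 9 rose at 12 h (median 0.75, against 16.6% of all genes). RUNKEL (1.61), TOP2 (1.49) and the cell-plate protein MAP65-3 (1.48) led at 6 h in cotyledons. Of 40 other tested cell-cycle genes, 7 rose in cotyledons at 6 h, a share near the 16.9% of all genes. Those with the largest change were the CDK inhibitor SMR4 (1.78), the mitotic activator MYB3R4 (1.63) and DEL1 (1.48), an atypical E2F. In hypocotyls none of the 40 rose at 6 h and CYCD4;2 fell (−1.18), where 14.2% of all genes were higher and 11.9% lower. At 12 h 4 rose and 2 fell, where 16.6% of all genes were higher and 14.2% lower. These hypocotyl counts are no higher than the shares of all genes.

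**Figure D5:**
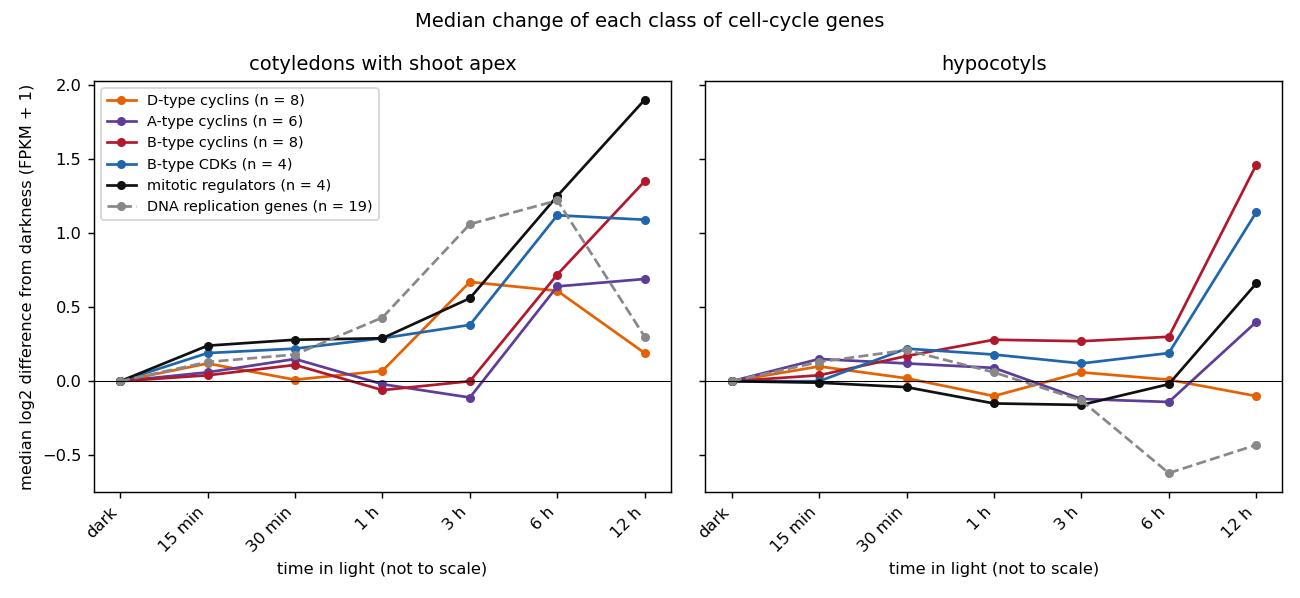
Median log2 change from darkness of the tested genes of each class against time in light (categories, not to scale), for cotyledons and hypocotyls. B-type cyclins rise from 6 h in cotyledons and at 12 h in hypocotyls, where their medians are 1.35 and 1.46 at 12 h.

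Markers of cell types gave these values beside the counts above. In cotyledons 7 of 14 genes of the stomatal lineage were called higher at 6 h and 6 at 12 h, against 16.9% and 15.1% of all genes. None was called in hypocotyls at either time by limma (8 at an unadjusted p under 0.05 at each). Among all genes, 14.2% rose in hypocotyls by 6 h of light and 16.6% by 12 h. SPCH, MUTE, FAMA, BASL, POLAR and ERL1 were below 1 FPKM in every hypocotyl library. Differences of log2(FPKM + 1) cannot reach 1 below that level, so these 6 genes could not be called in hypocotyls. For them the lack of a call is no contrast with cotyledons. The summed level of 8 leaf-primordium genes was 30.7 to 57.1 FPKM in hypocotyls and 265 to 489 FPKM in cotyledons. In cotyledons it went from 482 FPKM in darkness to 288 FPKM at 6 h and 278 FPKM at 12 h. GRF2 (−1.94) and AS1 (−1.41) were called lower there at 6 h, while FIL stood at 53.6 FPKM in darkness and 78.6 FPKM at 6 h. In hypocotyls GRF2 was also called lower at 6 h (−1.24), and AN3 and FIL rose at 12 h, to 4.79 and 1.46 FPKM. The FIL libraries there lay apart, at 0.805 and 2.11 FPKM, and FIL passed the mean limit of 1 FPKM through its cotyledon libraries. The summed level of 14 apex genes was 132 to 271 FPKM in hypocotyls and 82.2 to 125 FPKM in cotyledons, and KNAT1, also a gene of the stem, made up most of it in hypocotyls, at 112 FPKM in darkness and 229 FPKM at 3 h. In cotyledons STM was called lower at 6 h (−1.22) and 12 h, while ATH1 was called higher at 6 h (1.26, from 12.2 to 30.45 FPKM). The cotyledon sum of the apex genes was 105 FPKM in darkness, 109 FPKM at 6 h and 118 FPKM at 12 h. The apex genes CLV3, WUS, CUC2, CUC3 and AIL7 were below 1 FPKM in every hypocotyl library, with WUS at 0, while ANT and ATH1 rose there by 12 h, to 4.63 and 5.59 FPKM. LBD16 and LBD29, which act when roots form from the stem, were at 10.3 and 5.76 FPKM in dark hypocotyls, 2.77 and 2.70 FPKM at 3 h, where LBD16 was called lower, and 10.3 and 7.21 FPKM at 12 h. LBD16, LBD18, LBD29, GATA23 and PUCHI were below 1 FPKM in every cotyledon library. The 7 root markers summed to at most 0.161 FPKM in cotyledons and 1.47 FPKM in hypocotyls, where WOX5 reached 1.26 FPKM at 12 h. The part of these cell types in the counts was not tested.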

How the data were processed

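Gene expression was measured by sequencing poly(A) RNA of 28 libraries. FPKM values per gene were made by the authors with Cuffnorm and used as deposited. CASAVA 1.8.2, TopHat2 2.0.8 and Cuffdiff 2.1.1 and the build TAIR10 are named in the submitters' processing notes, which give no role or order for them. The p-values, q-values and log2 fold changes of the deposited Cuffdiff table are the authors' and served as an alternative. Whether reads were counted by strand is not stated there or in the labels.

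Differences were tested with limma 3.58.1 in R 4.3.3 on log2(FPKM + 1), over all 28 libraries with 1 mean per group, a mean-variance trend and robust moderation. P-values were adjusted by Benjamini-Hochberg within each comparison over the 18678 genes that averaged 1 FPKM or more, and the test was tried on simulated data. Alternatives were another pseudocount, no filter, quantile and upper-quartile scaling, a replicate block, the authors' table and each library left out. The labels call the replicates biological, so p-values cover the spread between these 2 samples per group.

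Total read counts were not used. Low FPKM values were fitted as whole multiples of one read's worth. After the fit 93.1% of 21088 values from 3721 low genes fell within 0.1 of a whole number. An even spread would give 20%, but the steps and depths were fitted to these same values, so some closeness is built in. These steps gave the relative depths, and about 16.6 reads per FPKM for a gene of 1500 bases in a library of relative depth 1.

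The members and all gene lists were chosen with earlier results of these data known. In each class the members named with every library are the called ones with the largest change in cotyledons, in hypocotyls and in the difference between them, and the other values named were chosen after their values were seen. In other lists up to 3 called genes with the largest change at 6 h are named. Upstream sequences and overlaps come from RefSeq, build TAIR10.1.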

Additional observations from a re-analysis of the deposited data

Results flagged for a closer look

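The change from darkness differed between hypocotyls and cotyledons, in limma's test of the difference itself, for 13 members. In this difference 15.5% of all genes were called higher and 13.5% lower at 3 h. The shares were 17.8% and 19.1% at 6 h, and 16.5% and 17.3% at 12 h. No share of all genes was counted over all times together. Each member is given at the time with its largest called difference, as the hypocotyl change minus the cotyledon change in log2(FPKM + 1). At 3 h the difference was −2.51 for CYCD6;1. At 6 h it was −1.17 for CYCA1;1, −1.32 for CYCA2;3, −1.97 for CYCA3;1, −1.09 for CDKB1;1, −1.01 for KNOLLE, 1.01 for CYCD1;1 and 1.75 for SIM. At 12 h it was 1.03 for CYCB2;3, 1.49 for CYCD3;2, −1.48 for AUR1, −2.54 for AUR2 and −2.23 for SMR1. The calls of CYCB2;3, CDKB1;1, KNOLLE and CYCD1;1 lie close to the limit of 1 and were lost when single libraries were left out. With 2 libraries per group no single library could be tested as standing apart.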

How the results depend on the processing

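Recomputed counts of called members, or of members with the promoter core, kept within 1.5 times the reported count in 222 cases and did not in 24, and no direction of a named member reversed. With a pseudocount of 0.1, 6 members were called in hypocotyls at 6 h, 2 in the difference between tissues at 1 h, 7 in that at 3 h, 2 in cotyledons between 6 and 12 h and 4 in hypocotyls between 1 and 6 h. Quantile normalization gave 1 for the difference at 1 h and 0 for hypocotyls between 1 and 6 h, and upper-quartile scaling gave 1 for the difference at 1 h. Leaving out single libraries moved the count over 0 to 1 in cotyledons at 30 min and at 1 h, 2 to 5 at 3 h, 9 to 14 at 6 h, 2 to 5 in hypocotyls at 3 h, 0 to 1 and 0 to 2 for the difference at 30 min and 1 h, 1 to 3 in cotyledons between 6 and 12 h and 0 to 1 in hypocotyls between 1 and 6 h. The causes were not tested. Replicate letters did not pair the samples (mean correlation of deviations 0.023, from −0.103 to 0.12, between light and dark samples of a tissue), and a replicate block moved none of 23 counts past 1.5 times. The authors' deposited table, with 28 of the 34 tested members, gave counts within 1.5 times in all 12 light comparisons. Of the 34 tested members 18 share or overlap no other gene. At 12 h 7 of these 18 rose in cotyledons, and 15 of the 34, where 15.1% of all genes were higher. In hypocotyls 10 of the 18 rose, and 16 of the 34, where 16.6% of all genes were higher. Besides the members given above with a partner, CYCB1;2, CYCB2;3, CYCD1;1, CYCD3;2 and all 4 B-type CDKs share or overlap another gene.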
